A study of Rattus norvegicus with 30 samples.

Results

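Genes of the sarcomere, the contractile unit of striated muscle, were measured by RNA sequencing in the plantaris tendons of rats before and after tenotomy and surgical repair. The members were 40 listed genes, chosen by name with earlier results of these data known. They fall into 11 genes of fast muscle fibres, 7 of slow fibres and 22 structural genes shared by both. The count table held 34 of them among 13124 genes, namely 9 fast, 7 slow and 18 structural genes, and all 34 had a mean of at least 3 CPM (counts per 1000000 counts) in the control group and in at least 4 repaired groups. Myh1, Myh2, Ttn, Lmod2, Myot and Tcap were not analysed here.

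The 30 tendons came from 3-month-old male Sprague Dawley rats. The 3 control tendons (replicates 2, 3 and 4) were from rats that had neither surgery nor compound. All other rats had a tenotomy with immediate repair and were gavaged daily with GSK2894631A, an inhibitor of hematopoietic prostaglandin D synthase, or with vehicle (0 mg/kg). At 7 days (7D) there were 5, 4 and 3 tendons at 0, 2 and 6 mg/kg, and at 21 days (21D) there were 5 tendons at each dose. The tendon was cut on the tendon side of the myotendinous junction, where muscle fibres attach, with the aim of leaving the muscle out, and each sample was bulk tissue. Each value below is therefore an amount of mRNA in a whole tendon sample, and fewer muscle cells and less mRNA per muscle cell cannot be told apart. Counts over all genes in the table summed to 12405741 to 49909374 per tendon, and 3 counts were worth 0.0601 to 0.242 CPM. CPM values were scaled by TMM, and members were compared between groups by the quasi-likelihood test of edgeR. P-values were adjusted by the Benjamini-Hochberg method over 12558 genes, and a gene was called where the adjusted p was under 0.05 and the fold change 1.5 or more. The tendons of a group came from separate rats by the study's methods.

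In a sarcomere, thick filaments of myosin heavy and light chains pull on thin filaments of actin, tropomyosin and troponin. The thin filaments are anchored at the Z-disc by alpha-actinin, and the thick filaments are tied at the centre by the M-band. Fast and slow fibres use different genes for the same parts, such as Myh4 and Myh7 for the myosin heavy chain or Tnnt3 and Tnnt1 for the tropomyosin-binding subunit of troponin. Proteins such as Csrp3, Nrap and the Xin proteins Xirp1 and Xirp2 sit at the Z-disc, at sites of sarcomere assembly or at the ends of the fibre where force passes to the tendon. Tendon cells themselves build no sarcomeres.

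Sarcomere genes took a large share of the counts in control tendons and much smaller, uneven shares after repair. The 34 members held 17.6, 17.7 and 23.6% of the counts in control replicates 2, 3 and 4. In 7D 0 mg/kg tendons the share was 0.592, 1.18, 0.217, 0.954 and 0.237% in replicates 1 to 5, below every control tendon. With the inhibitor at 7 days the share was 0.0243, 0.0211, 0.0256 and 0.0262% with 2 mg/kg (replicates 2 to 5) and 0.0234, 0.0311 and 0.0242% with 6 mg/kg (replicates 1, 4 and 5). Every treated tendon at 7 days was thus below every 7D 0 mg/kg tendon, and the tendons of the 2 treated groups overlapped. At 21 days the shares in replicates 1 to 5 were 5.1, 0.0832, 2.12, 2.55 and 7.26% with vehicle, 3.02, 1.59, 1.18, 1.24 and 2.68% with 2 mg/kg and 7.09, 8.98, 0.323, 4.92 and 0.425% with 6 mg/kg. The highest 21D tendon held 108 times the share of the lowest, and 3 tendons (21D 0 mg/kg replicate 2 and 21D 6 mg/kg replicates 3 and 5) lay below all the others at 21 days. In the control group the highest tendon held 1.34 times the share of the lowest.

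**Figure D1:**
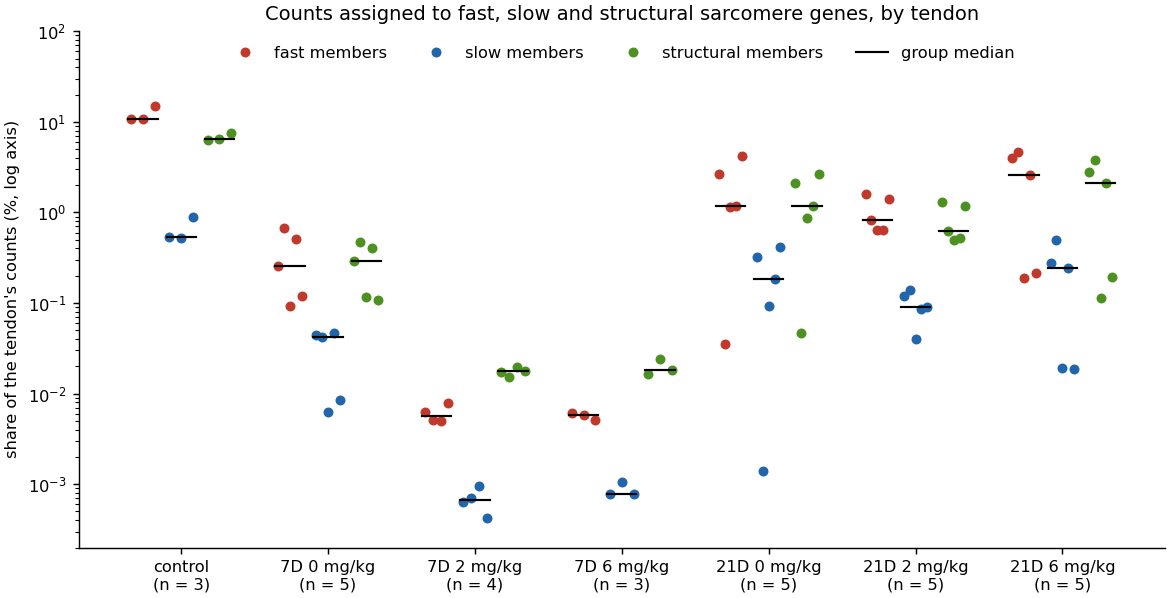
Share of each tendon's counts (%, log axis) assigned to the 9 fast, 7 slow and 18 structural members, with 1 point per tendon and a line at the group median. All 3 classes were highest in control tendons and lowest in the 7D 2 and 6 mg/kg tendons, and at 21D 0 and 6 mg/kg the tendons of 1 group differed by up to 87.3-fold and 27.8-fold in their total over the members.

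Compared to control tendons, all 9 fast genes were lower in the 7D 0 mg/kg group. Myh4 (ENSRNOG00000049695, chromosome 10), the myosin heavy chain of the fastest fibres, was at 54429, 49868 and 50333 CPM in control tendons and at 748, 1720, 387, 1631 and 254 CPM in the 7D 0 mg/kg group. The groups were far apart, with every repaired tendon below every control tendon. The log2 fold change of Myh4 was -5.76 ± 1.05 (SE), with an adjusted p of 2.91e-05 by edgeR's quasi-likelihood test. Myh4 lies in a cluster of closely related myosin heavy chain genes that includes Myh1 and Myh2, so its count is uncertain by whatever reads the counting assigned between such neighbours. The Myh4 entry spans 134410 bases of the genome, where that of Myh7 spans 21668, so its counts may include reads of neighbouring genes. This was not tested, and it applies to the ratios to Myh4 below as well. Actn3, the alpha-actinin of fast fibres, was at 11389 ± 1892 (SD, n = 3) CPM in control and 180 ± 167 (SD, n = 5) CPM in the 7D 0 mg/kg group. On the log2 scale it changed by -5.99 ± 1.12, the light chain Mylpf by -5.84 ± 1.03 and the troponin T gene Tnnt3 by -5.95 ± 1.01. Myl1, Tnnc2, Tnni2, Mybpc2 and Myoz1, which encode a light chain, troponin C, troponin I, myosin-binding protein C and a calcineurin-binding Z-disc protein, were also called lower, with log2 fold changes from -6.15 (Tnni2) to -5.37 (Mybpc2).

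The 7 slow genes were also all called lower at 7D 0 mg/kg. Myh7 (ENSRNOG00000016983, chromosome 15), the slow myosin heavy chain, was at 832, 387 and 1826 CPM in control tendons and at 78.7, 1.89, 0.531, 96.6 and 0.496 CPM in 7D 0 mg/kg replicates 1 to 5. Replicates 1 and 4 thus kept far more Myh7 than the other 3 tendons of their group, although all 5 were below the control tendons. The log2 fold change was -4.83 ± 1.58 (SE), with an adjusted p of 0.00865. Myl2 and Myl3, the slow light chains, were likewise highest in replicates 4 and 1, with Myl2 at 10.4, 0.794, 0.0279, 15.7 and 0.223 CPM against 110, 50.2 and 733 CPM in control tendons. Tnnt1 was at 49.9, 12.2, 4.25, 66.2 and 6.87 CPM and Tnnc1 at 29.5, 9.94, 5.37, 36.7 and 6.97 CPM, both with replicates 1 and 4 above the others. The slow troponin genes Tnni1, Tnnt1 and Tnnc1 changed by -4.21, -4.77 and -4.65 on the log2 scale. Mybpc1, the slow myosin-binding protein C, was at 177, 337, 43.9, 118 and 45.4 CPM in these 5 tendons, and it was highest in replicate 2, where Myh7 was at 1.89 CPM.

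All 18 structural genes were lower as well. Acta1 (ENSRNOG00000017786, chromosome 19), the actin of adult skeletal muscle, was at 41596, 35652 and 72779 CPM in control tendons and at 640, 2058, 188, 1719 and 387 CPM in the 7D 0 mg/kg group, a log2 fold change of -5.65 ± 1.08 (SE). The smallest change of the 34 members was in Actc1, the actin of heart and developing muscle, at -3.04 ± 0.91 on the log2 scale. It was at 55.3, 65.7 and 170 CPM in control tendons and at 11.5, 23.9, 0.531, 17.1 and 5.75 CPM in the 7D 0 mg/kg group, where replicate 3 was the lowest and the groups did not overlap. Des, the intermediate filament around the Z-disc, changed by -4.07 ± 0.67 and Tpm2, a tropomyosin, by -5.12 ± 0.85. The remaining structural genes were Neb (nebulin), Lmod3, Mybph, the M-band genes Myom1, Myom2 and Myom3, the Z-disc genes Actn2 and Ldb3, the junction genes Csrp3, Nrap, Xirp1 and Xirp2, Cmya5, and Smyd1, a methyltransferase needed for myosin assembly. Neb was at 11738, 9699 and 5457 CPM in control and 415, 427, 142, 428 and 57.7 CPM in the 7D 0 mg/kg group, and Nrap at 2096, 2373 and 2082 CPM and 110, 88.5, 42.3, 74 and 16.6 CPM. These genes were called lower too, with log2 fold changes from -5.92 (Ldb3) to -3.91 (Myom3). Over the 34 members the median log2 fold change was -5.35, and all 34 were called lower, against 27.6% of all genes tested. The median over all genes was 0.05.

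**Figure D2:**
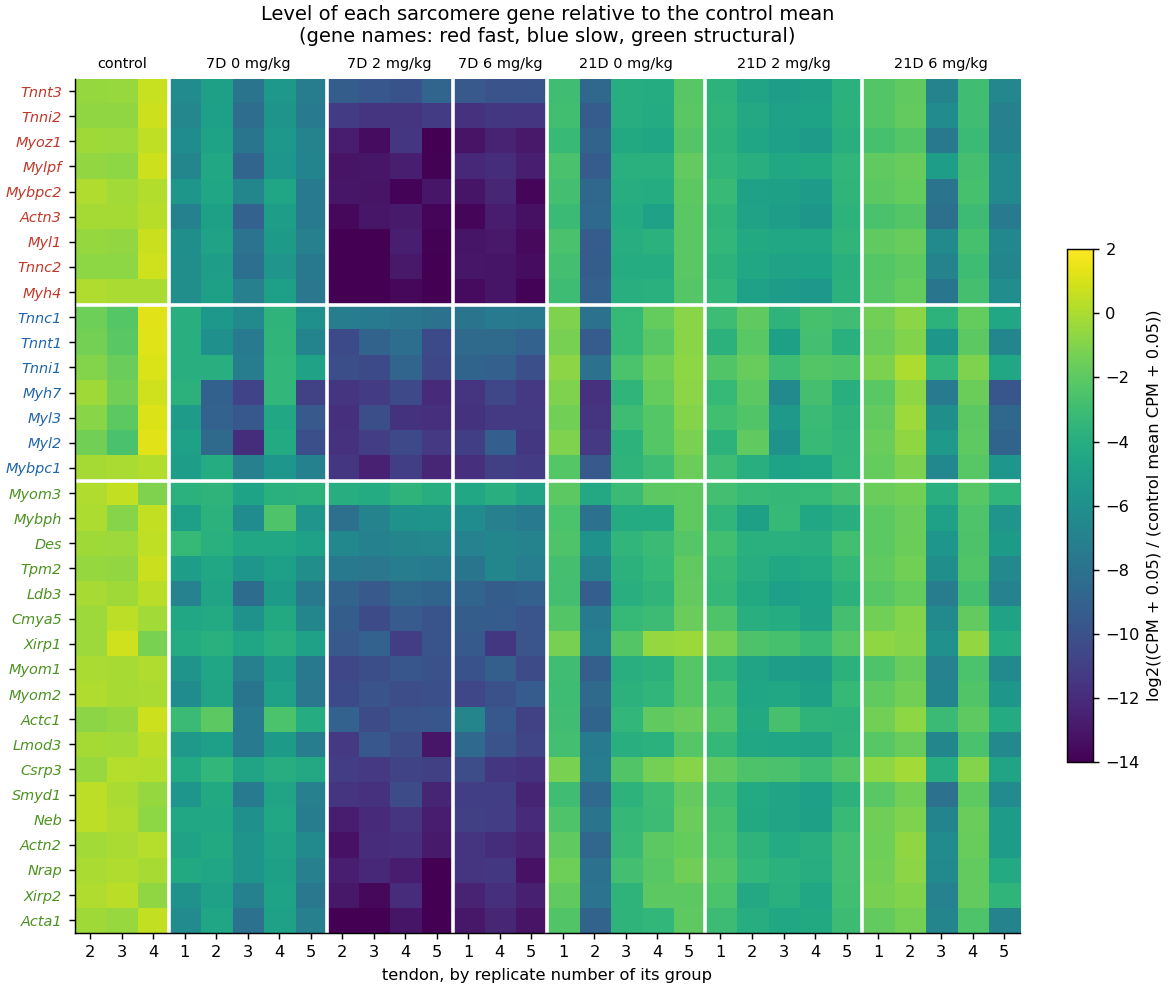
Level of each member (rows) in each of the 30 tendons (columns, by group and replicate number), as the log2 ratio of CPM to the control mean after adding 0.05 to both, on a colour scale that ends at -14. Columns for the 7D 2 and 6 mg/kg groups are darkest for fast genes, while Myom3, Des, Tpm2 and Mybph stay lighter, and Myh7, Myl2 and Myl3 are dark in 7D 0 mg/kg replicates 2, 3 and 5.

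In tendons of rats given 2 or 6 mg/kg, the sarcomere genes at 7 days were lower still. All 34 were below control at both doses, against 26.5% of all genes called lower with 2 mg/kg and 27.4% with 6 mg/kg, with median log2 fold changes of -11.37 and -11.24. Both comparisons use the same 3 control tendons as the 0 mg/kg comparison. Myh4 was at 2.06, 1.88, 3.88 and 1.48 CPM with 2 mg/kg (counts of 56, 67, 71 and 23) and at 4.25, 5.75 and 3.46 CPM with 6 mg/kg (counts of 227, 76 and 114). These levels were 0.00451% and 0.0087% of the control mean, where 7D 0 mg/kg tendons were at 1.84%. Acta1 was at 2.43, 2.49, 5.73 and 1.6 CPM with 2 mg/kg and 6.19, 9.98 and 5.5 CPM with 6 mg/kg, or 0.00613% and 0.0144% of the control mean. The tendons within each treated group were close together, and no treated tendon reached the lowest 7D 0 mg/kg tendon for either gene.

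Some members were at the edge of detection in the treated tendons. Csrp3, which encodes a muscle LIM protein, had 3, 3, 3 and 2 counts in the 4 tendons with 2 mg/kg and 13, 1 and 2 with 6 mg/kg, against 19.2, 33.1, 14, 21.5 and 17.3 CPM in the 7D 0 mg/kg group. Its level over the 7D 0 mg/kg group was 185 times that over the 2 mg/kg group (95% exact interval 103 to 370, counting error only). Smyd1 had 1, 1, 3 and 0 counts with 2 mg/kg and 4, 1 and 0 with 6 mg/kg, and the same ratio was 123 (95% interval 52.7 to 380). Myl2 had 1, 3, 3 and 1 counts with 2 mg/kg, with a ratio of 63.2 (95% interval 32.0 to 147). This interval leaves out the spread between tendons, which was large for Myl2. The vehicle counts were 379, 29, 1, 542 and 9, so most came from replicates 1 and 4. The 2 groups overlapped, at 0.0279 to 15.7 CPM with vehicle and 0.0368 to 0.164 CPM with 2 mg/kg. The fitted fold changes of these 3 genes depend on the prior count. Nrap, an actin-binding protein of assembling myofibrils, had 8, 15, 5 and 1 counts with 2 mg/kg and 36, 10 and 6 with 6 mg/kg. Actc1 had 4, 1, 1 and 1 counts with 2 mg/kg, and with 6 mg/kg it had 47, 1 and 0 (0.879, 0.0756 and 0 CPM), so that nearly all its counts in that group came from replicate 1. The same tendon, 7D 6 mg/kg replicate 1, held 58 counts of Lmod3, which encodes a leiomodin of the thin filament, against 5 and 7 in the other tendons of its group (1.08, 0.378 and 0.213 CPM).

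Other members kept a readily counted level. Myom3, a myomesin of the M-band, was at 21.4, 24.1, 11.1, 20.3 and 22.1 CPM with vehicle, 18.2, 16.4, 24.2 and 18.5 CPM with 2 mg/kg and 14.2, 19.3 and 11.6 CPM with 6 mg/kg. These groups overlapped, and Myom3 did not pass the test between 2 and 0 mg/kg (log2 fold change -0.04 ± 0.44, adjusted p = 0.98). Tpm2 was at 61.9, 55.6, 72.9 and 63.6 CPM with 2 mg/kg and 51, 111 and 80.4 CPM with 6 mg/kg, or 0.564% and 0.718% of the control mean. Des was at 65.6, 49.1, 59.1 and 63.9 CPM with 2 mg/kg and 51.7, 61.8 and 54 CPM with 6 mg/kg (0.971% and 0.913%), and Mybph, a relative of myosin-binding protein C, at 1.29, 3.14, 6.77 and 7.06 CPM and 4.83, 2.8 and 1.98 CPM (1.24% and 0.872%). Tnnt3 kept 0.152% and 0.116% of the control mean, the highest of the fast genes, and Tnnc1, which also serves the heart, 0.511% and 0.521%, the highest of the slow genes. The median share of the control mean left over the 34 members was 0.0377% with 2 mg/kg and 0.04% with 6 mg/kg, and 23 and 20 members were under 0.1%. The number of Des counts per 1000 Acta1 counts was 116 to 137 in control tendons, 161 to 1500 in the 7D 0 mg/kg group and 6189 to 39800 in the 7 treated tendons, which did not overlap the other groups at 7 days or the controls. Des and Tpm2 are also used by smooth muscle. The summed level of 10 smooth muscle genes was 902 to 1226 CPM in control tendons, 731 to 1685, 676 to 774 and 759 to 1254 CPM in the 7D groups at 0, 2 and 6 mg/kg, and none of the 10 had 3 counts or fewer in all tendons of a group. The list holds Synpo2, which is also among the further sarcomere genes below, and much of the control sum was this gene, at 381 to 578 CPM in control tendons and 11.8 to 41.0 CPM in the 7D 0 mg/kg group. Without Synpo2 the sum was 403 to 649 CPM in control tendons and 719 to 1649, 673 to 761 and 751 to 1250 CPM in those 7D groups, all above the control range. Of the 10 genes 4, 1 and 3 were higher and 2, 2 and 2 lower than control in the 3 groups. Of all genes 29%, 29.1% and 28.3% were higher and 27.6%, 26.5% and 27.4% lower. The 4 at 7D 0 mg/kg were Acta2, the smooth muscle actin (1.5 ± 0.37), Cald1 (1.25 ± 0.19), Actg2 (2.16 ± 0.58) and Tagln (1.85 ± 0.44), each a log2 fold change ± SE, and the lower genes in each group were Synpo2 and Lmod1. The part of smooth muscle in the level left was not tested.

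**Figure D3:**
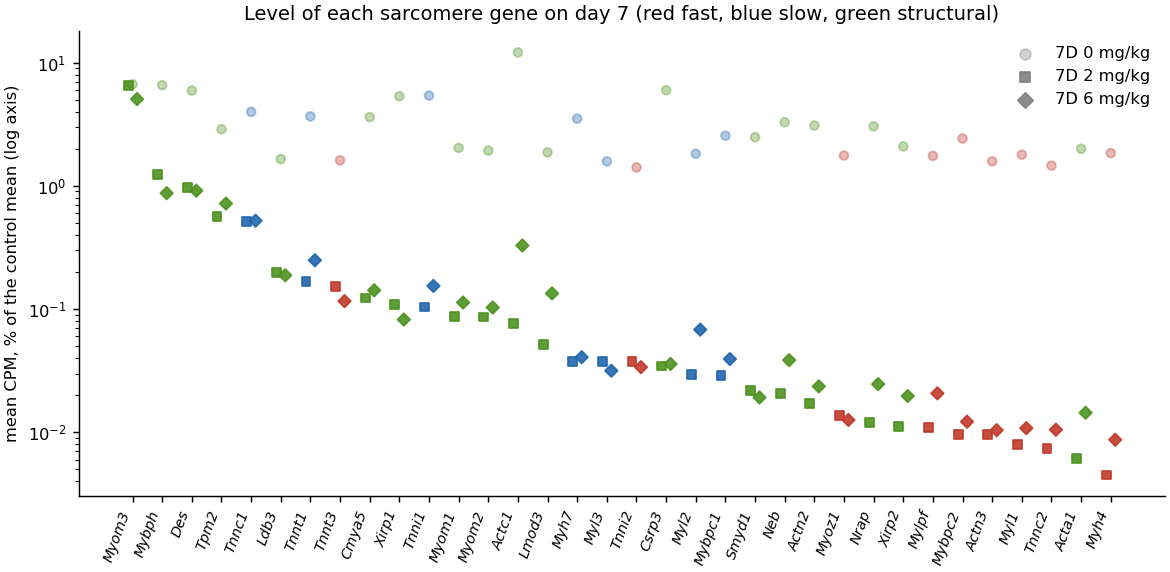
Mean CPM of each member in the 7D groups as a percentage of the control mean (log axis), with members ordered by their level with 2 mg/kg and coloured by class. The 2 and 6 mg/kg symbols lie close together, at 6.51 and 5.06% for Myom3 and at 0.00451 and 0.0087% for Myh4, whereas the 0 mg/kg symbols lie between 1.41 and 12.1%.

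The bases before the transcription start are shown for the pair of members with the least left with 2 mg/kg (Acta1 and Myh4) and a pair that kept a counted level (Tpm2 and Myom3). In the set of RefSeq starts used here (GRCr8 build), 26 of the 34 members were found by gene symbol. Mylpf, Tnnt3, Myl2, Tnnc1, Mybph, Myom2, Csrp3 and Nrap had no entry in that set. The 250 bases before the start are printed 5′ to 3′ on the gene's strand, with capitals for matches, on either strand, to 5 motifs. These were the E-box CAGCTG, the muscle motif MCAT spelled CATTCC, the promoter element TATAAA, the CArG box and the MEF2 site.
Acta1 (chr19:68784195-68784444, minus strand): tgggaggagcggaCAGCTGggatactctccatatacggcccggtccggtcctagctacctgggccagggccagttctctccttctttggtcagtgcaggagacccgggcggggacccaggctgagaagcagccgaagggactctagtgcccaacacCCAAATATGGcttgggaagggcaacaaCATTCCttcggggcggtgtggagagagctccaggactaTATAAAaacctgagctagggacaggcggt
Myh4 (chr10:52421898-52422147, plus strand): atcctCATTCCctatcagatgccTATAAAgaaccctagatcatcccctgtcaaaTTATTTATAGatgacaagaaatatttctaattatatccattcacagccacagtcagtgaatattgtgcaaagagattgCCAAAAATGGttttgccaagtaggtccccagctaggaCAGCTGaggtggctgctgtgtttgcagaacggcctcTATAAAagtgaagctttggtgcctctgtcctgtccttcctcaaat
Tpm2 (chr5:62575727-62575976, minus strand): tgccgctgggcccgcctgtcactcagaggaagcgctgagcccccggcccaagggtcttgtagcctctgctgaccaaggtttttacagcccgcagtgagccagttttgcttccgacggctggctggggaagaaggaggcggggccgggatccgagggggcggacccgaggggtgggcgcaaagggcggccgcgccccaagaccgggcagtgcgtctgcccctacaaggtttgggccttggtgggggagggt
Myom3 (chr5:153276056-153276305, plus strand): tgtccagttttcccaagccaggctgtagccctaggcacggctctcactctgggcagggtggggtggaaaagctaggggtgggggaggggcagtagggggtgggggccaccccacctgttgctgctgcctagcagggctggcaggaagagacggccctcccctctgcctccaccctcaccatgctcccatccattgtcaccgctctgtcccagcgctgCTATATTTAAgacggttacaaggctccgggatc
Acta1 and Myh4 each held a CArG box, which serum response factor binds, an E-box, an MCAT motif and TATAAA, and Myh4 also a MEF2 site that overlaps a TATAAA. Myom3 held a MEF2 site alone, and Tpm2 held none of these letters in this window. A CArG box stood in 4 of the 26 members (15.4%; Myh4, Myl3, Acta1 and Ldb3) and in 1.62% of 27457 genes with a start. The MEF2 site stood in 6 members (23.1%; Myh4, Myl1, Myoz1, Myom3, Xirp1 and Xirp2) and in 3.32% of all genes. The E-box CAGCTG was in 7 members (26.9%) and 12.9% of all genes, TATAAA in 7 (26.9%) and 14.1%, and the MCAT motif in 4 (15.4%) and 12.9%. These matches describe letters and not bound sites.

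The question of whether the inhibitor changed sarcomere genes at 7 days was tested directly between doses. At 2 mg/kg, 24 members were lower than with vehicle (8 fast, 2 slow and 14 structural), against 1.32% of all genes. The log2 fold change was -8.68 ± 1.29 (SE) for Myh4 with an adjusted p of 0.00117 by edgeR's quasi-likelihood test, -8.35 ± 1.32 for Acta1, -7.30 ± 1.19 for Neb and -7.47 ± 1.18 for Csrp3. The slow genes called were Tnni1 (-5.74 ± 1.18, adjusted p = 0.00762) and Mybpc1 (-6.47 ± 1.19, adjusted p = 0.00357). Myh7 had a log2 fold change of -6.52 ± 1.99 and an adjusted p of 0.0839, with 7D 0 mg/kg replicates 3 and 5 within the range of the treated tendons. The other members that did not pass were Myl2, Myl3, Tnnc1, Tnnt1, Tnnt3, Tpm2, Ldb3, Mybph and Myom3, with log2 fold changes from -5.96 (Myl2) to -0.04 (Myom3). At 6 mg/kg, 16 members were lower than with vehicle, against 0.39% of all genes. They were the 8 fast genes other than Tnnt3, the slow gene Mybpc1, and Acta1, Neb, Actn2, Csrp3, Nrap, Xirp1 and Xirp2. Myh4 changed by -7.73 ± 1.41 (adjusted p = 0.0173) and Acta1 by -7.12 ± 1.42 (adjusted p = 0.0206). The count for 6 mg/kg rested on every tendon of a group of 3, since 0 members passed edgeR's test when any 1 of replicates 1, 4 and 5 was left out. In those fits 31 to 33 members were at an unadjusted p under 0.05, and with all tendons DESeq2 called 28 members lower.

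Between 6 and 2 mg/kg at 7 days, 0 members passed edgeR's test in either direction and 0 were at an unadjusted p under 0.05, and DESeq2 called 0. None of the genes tested passed either (0% lower and 0% higher). The median log2 difference over the members was 0.34, and it was 0.94 ± 1.05 (SE) for Myh4 and 1.23 ± 1.07 for Acta1. For the slow genes Myl2 and Myh7, which had few counts in these tendons, the SE was 3.64 and 2.38 and is rough. Differences of several fold lay within these errors. In a test over the 3 doses at 7 days, 25 members differed, against 2.05% of all genes, and the 9 that did not were Tnnt1, Tpm2, Myom3, Myl3, Mybph, Myh7, Tnnc1, Ldb3 and Myl2. The adjusted p was 0.000127 for Acta1, the smallest value, which it shared with 8 other members, and 0.925 for Myom3, the largest.

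At 21 days the fast genes were again below control at every dose, whereas among the slow genes only Mybpc1 was called at all 3 doses. At 0 mg/kg 26 members were lower (9 fast, 1 slow and 16 structural), with 2 mg/kg 33 (9, 6 and 18) and with 6 mg/kg 22 (9, 1 and 12), against 25.2%, 27.3% and 24.6% of all genes. The median log2 fold changes over the members were -2.98, -3.72 and -2.51, and the 3 comparisons share the control tendons. Whether the fold changes of fast and slow genes differed was not tested. Myh4 was at 6492, 92.9, 3345, 3541 and 11229 CPM with vehicle, 4852, 1815, 1423, 1163 and 3911 CPM with 2 mg/kg and 11593, 14754, 231, 7890 and 711 CPM with 6 mg/kg. All 15 tendons were below the control tendons, and vehicle replicate 2 and 6 mg/kg replicates 3 and 5 were the lowest. The log2 fold changes against control were -3.38 ± 0.96, -4.29 ± 0.99 and -2.87 ± 0.95, with adjusted p of 0.00343, 0.000478 and 0.0105 by edgeR's quasi-likelihood test.

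The other fast genes had much the same pattern. Actn3 was at 1313, 30.7, 628, 397 and 2628 CPM with vehicle, and Tnnt3 was at 3846, 71.6, 1740, 1627 and 6305 CPM there, with the lowest value of both in replicate 2. Mylpf changed by -3.09 ± 0.93, -3.85 ± 0.95 and -2.72 ± 0.93 at 0, 2 and 6 mg/kg. Acta1 was at 10043, 102, 4143, 4810 and 12621 CPM with vehicle, 6075, 3085, 2322, 2579 and 6226 CPM with 2 mg/kg and 13882, 19388, 482, 9280 and 436 CPM with 6 mg/kg. The same 3 tendons were lowest as for Myh4. The log2 fold changes of Acta1 were -2.98 ± 0.98, -3.62 ± 1.0 and -2.52 ± 0.98. Neb, the thin filament ruler, changed by -2.75, -3.67 and -2.08, Mybph by -3.20, -3.89 and -2.63, and Des by -2.99, -3.37 and -2.62, all called. Among the fast genes the median share of the control mean was 9.75% with vehicle, 5.37% with 2 mg/kg and 12.7% with 6 mg/kg. Over the slow genes it was 25.8%, 11.3% and 25%.

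Myh7 was at 466, 0.252, 89.4, 294 and 584 CPM at 21D 0 mg/kg, 103, 245, 11.7, 154 and 66.2 CPM with 2 mg/kg and 241, 630, 6, 335 and 1.13 CPM with 6 mg/kg. The groups at 0 and 6 mg/kg overlapped the control tendons, while 21D 0 mg/kg replicate 2 and 21D 6 mg/kg replicates 3 and 5 were far below them. The adjusted p against control was 0.276, 0.0654 and 0.222, so Myh7 was not called at any dose. Myl2, Myl3, Tnnc1, Tnni1 and Tnnt1 were called with 2 mg/kg and not at 0 or 6 mg/kg. Without control replicate 4 none of these 5 was called with 2 mg/kg, with log2 fold changes from -1.88 (Myl3) to -0.92 (Tnnc1), and the count of members lower was 28. With all control tendons Myl2 and Tnnc1 overlapped control at this dose. For Tnni1 the values were 318, 2.07, 97, 193 and 335 CPM with vehicle, 111, 166, 72.2, 115 and 105 CPM with 2 mg/kg and 250, 580, 50.2, 261 and 26 CPM with 6 mg/kg, against 282, 178 and 1216 CPM in control tendons. Mybpc1 was the slow gene called at every dose, with log2 fold changes of -2.72, -3.77 and -2.35. Control replicate 4 was high in the slow genes, for instance at 1804 CPM of Tnnt1 where replicates 2 and 3 were at 306 and 177. It was also high in several fast genes, such as Tnnc2 at 28792 CPM where replicates 2 and 3 were at 9973 and 10072, but not in Myh4.

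Xirp1 and Csrp3 were the structural genes called at neither 0 nor 6 mg/kg. Xirp1, which encodes a Xin protein, was at 268, 610 and 144 CPM in control tendons, 143, 2.42, 70.5, 241 and 256 CPM at 21D 0 mg/kg, 133, 61.5, 53, 35.8 and 76.4 CPM with 2 mg/kg and 215, 185, 5.71, 227 and 20.2 CPM with 6 mg/kg. The ranges overlapped at 0 and 6 mg/kg, where Xirp1 was not called (adjusted p = 0.192 and 0.154). Csrp3 was at 152, 2.3, 71, 139 and 192 CPM with vehicle and 218, 300, 21.1, 183 and 14 CPM with 6 mg/kg, against 253, 407 and 399 CPM in control tendons, and was called only with 2 mg/kg (log2 fold change -2.40 ± 0.75, adjusted p = 0.00663). Besides these, Actc1, Actn2, Nrap and Xirp2 were not called with 6 mg/kg, with adjusted p of 0.0762, 0.0585, 0.0522 and 0.0532. Without control replicate 4, 14 members were called with 6 mg/kg in place of 22.

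**Figure D4:**
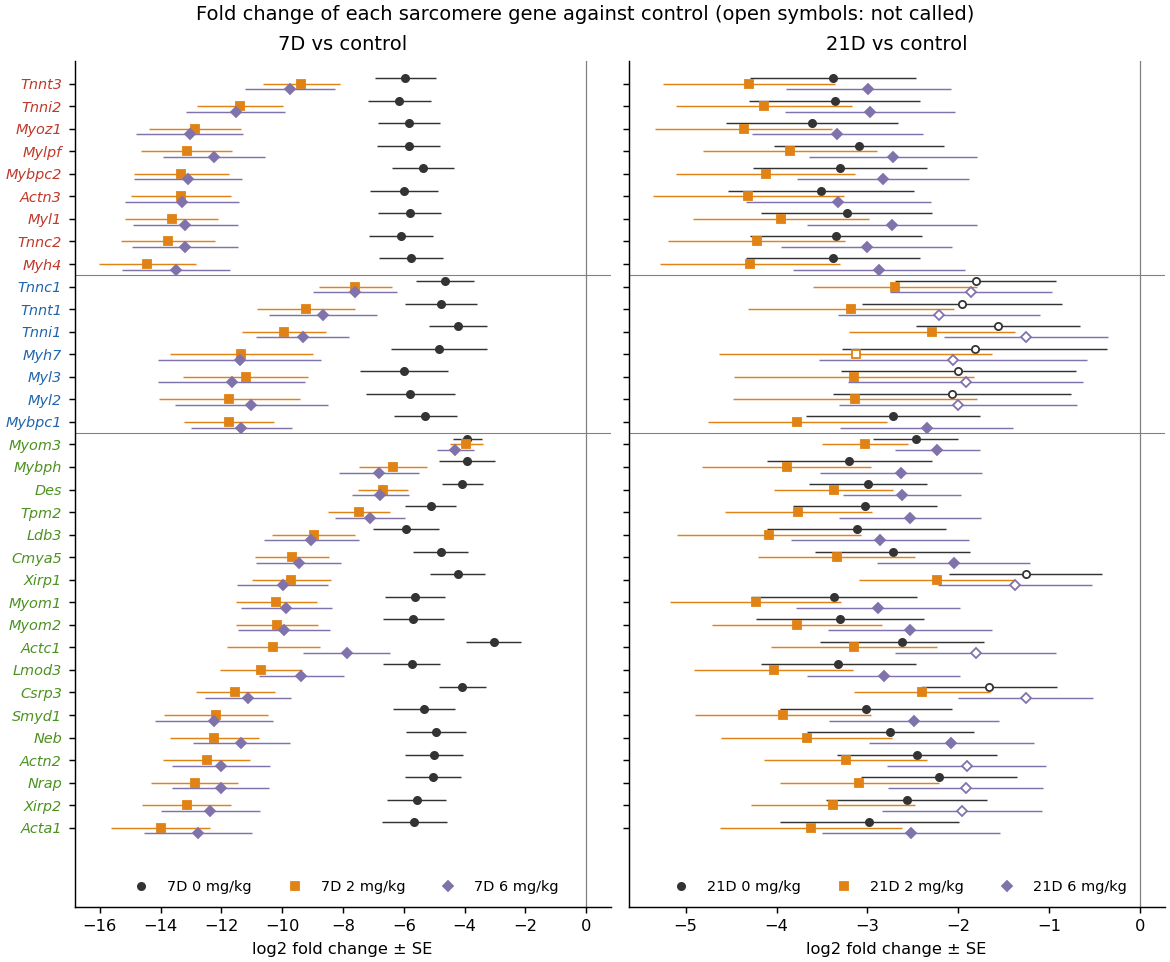
Log2 fold change of each member against control with its SE, at 7 days (left) and 21 days (right), for 0, 2 and 6 mg/kg. Filled symbols passed the test and open symbols did not. At 7 days the 2 and 6 mg/kg symbols lie left of the 0 mg/kg symbols for nearly all members but not Myom3, and at 21 days the open symbols are slow genes, Xirp1 and Csrp3 and, with 6 mg/kg, some more structural genes.

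At 21 days no difference between doses was detected. Of the 34 members, 0 differed over the 3 doses by edgeR's quasi-likelihood F-test, 0 were at an unadjusted p under 0.05 and DESeq2 called 0, and 0% of all genes passed. The adjusted p of the members was 0.582 to 0.827. In a test of whether the differences between doses changed from 7 to 21 days, 14 members passed, against 0.39% of all genes. They were the fast genes Myh4, Actn3, Mylpf, Myl1, Tnnc2, Mybpc2 and Myoz1, the slow gene Mybpc1, and Acta1, Neb, Actn2, Nrap, Csrp3 and Xirp2. Without 21D 0 mg/kg replicate 4, 8 members passed.

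From 7 to 21 days, sarcomere genes rose in the treated groups by large factors. At 2 mg/kg 32 members were higher at 21 days, against 5.07% of all genes, and with 6 mg/kg all 34, against 6.72%. Myh4 rose by 10.15 ± 1.37 (SE) on the log2 scale with 2 mg/kg and by 10.62 ± 1.59 with 6 mg/kg, with adjusted p of 9.15e-05 and 0.00032 by edgeR's quasi-likelihood test. Myh7 rose by 8.23 ± 2.10 and 9.33 ± 2.49, and Nrap by 9.79 ± 1.29 and 10.12 ± 1.47. Myom3 and Mybph, which had kept a higher level at 7 days, were the members not called with 2 mg/kg (log2 fold change 0.91 ± 0.45 and 2.47 ± 0.93), and with 6 mg/kg they rose by 2.08 ± 0.52 and 4.19 ± 1.13. At 0 mg/kg 6 members were higher at 21 days, against 1.86% of all genes. These were Tnnc1 (2.84 ± 0.84), Myom3 (1.44 ± 0.42), Csrp3 (2.40 ± 0.70), Nrap (2.83 ± 0.81), Xirp1 (2.97 ± 0.81) and Xirp2 (3.01 ± 0.84), with adjusted p from 0.0327 to 0.0479. The count with vehicle turned on single tendons. Without 21D 0 mg/kg replicate 2 it was 30, and it was 0 without 21D 0 mg/kg replicate 1, 4 or 5 or without 7D 0 mg/kg replicate 3, 4 or 5. It was 1 without 7D 0 mg/kg replicate 1 and 3 without replicate 2. In the fits with 0 calls, 24 to 31 members were at an unadjusted p under 0.05, and DESeq2 with all tendons called 27.

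The balance of fast and slow genes varied between tendons of the same group. The log2 ratio of summed fast to summed slow counts was 4.3, 4.38 and 4.08 in control tendons and 2.54, 3.98, 3.88, 3.44 and 3.82 in the 7D 0 mg/kg group. In the treated tendons at 7 days it was 3.29, 2.87, 2.37 and 4.2 with 2 mg/kg and 2.97, 2.49 and 2.69 with 6 mg/kg. At 21 days this ratio was 3.05, 4.67, 3.63, 2.67 and 3.35 with vehicle, 3.73, 2.58, 3.99, 2.88 and 3.94 with 2 mg/kg and 3.83, 3.24, 3.3, 3.39 and 3.52 with 6 mg/kg. Every 7D 0 mg/kg tendon lay below the 3 control tendons, and in the 21D groups all but 1 of 15 did, the exception being 21D 0 mg/kg replicate 2. Of the treated 7D tendons, 2 mg/kg replicate 5 lay within the control range and the others below it. In every treated 7D tendon, however, Tnnt3 alone made up most of the fast sum. It was 62.9 of 75.5 CPM in 2 mg/kg replicate 5, against 19733 of 144478 CPM in control replicate 2. The ratio in treated tendons thus rests largely on this gene. Mybpc1 made up most of the slow sum in some tendons, at 5153 of 7317 and 5501 of 6600 CPM in control replicates 2 and 3. Its part was smaller in control replicate 4, at 6350 of 14948 CPM. The slow members differed in their ratios to fast genes. Per 1000 Myh4 counts, Myh7 had 15.3, 7.76 and 36.3 counts in control tendons and 105, 1.1, 1.37, 59.2 and 1.95 in the 7D 0 mg/kg group, a 95.5-fold range within 1 group. At 21 days the ratio was 71.8, 2.71, 26.7, 82.9 and 52 with vehicle, 21.2, 135, 8.25, 132 and 16.9 with 2 mg/kg and 20.8, 42.7, 26, 42.4 and 1.59 with 6 mg/kg. It was low in 21D 0 mg/kg replicate 2 and 21D 6 mg/kg replicate 5, which were also among the tendons with least Myh4, but 21D 6 mg/kg replicate 3 had little Myh4 and an intermediate ratio. Tnnt1 had 12.8 to 134 counts per 1000 Tnnt3 counts in the 7D 0 mg/kg group, a 10.5-fold range, and Tnni1 had 79.3 to 269 per 1000 Tnni2 counts, a 3.39-fold range. Mybpc1, grouped with the slow genes, had 94.7 to 126 counts per 1000 Myh4 counts in control tendons, 72.1 to 237 in the 7D 0 mg/kg group and 83.2 to 265 in the 15 tendons at 21 days. In the 7 treated tendons at 7 days it had 366 to 946, above every other tendon.

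**Figure D5:**
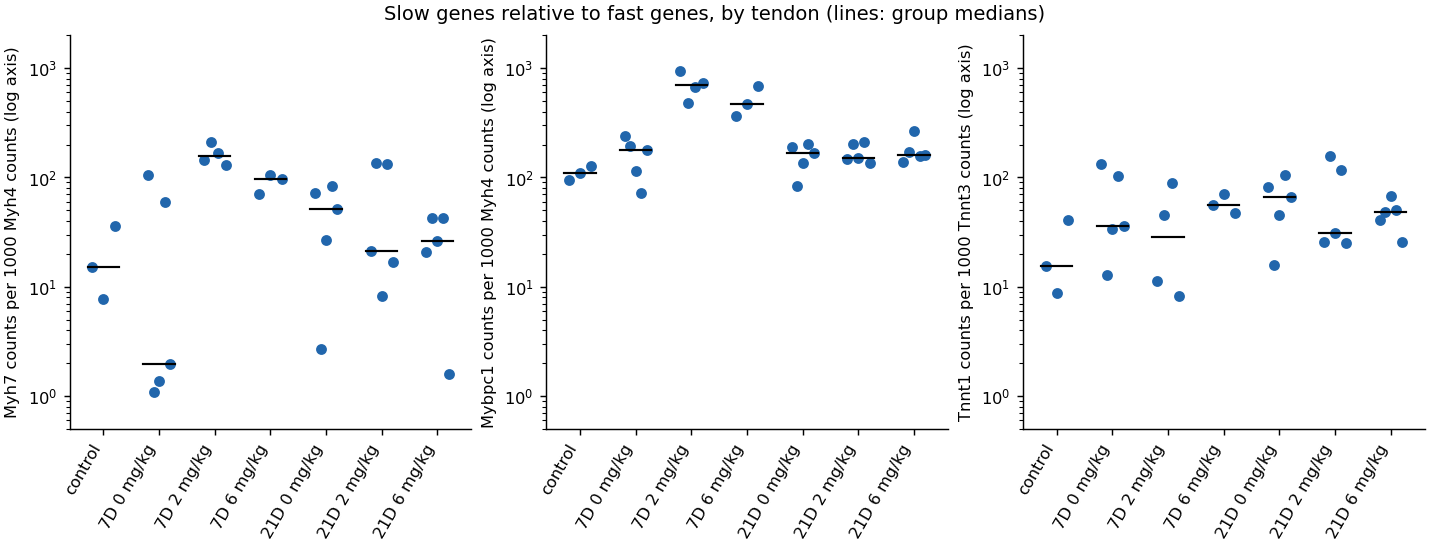
Counts of Myh7 and of Mybpc1 per 1000 Myh4 counts and counts of Tnnt1 per 1000 Tnnt3 counts (log axes), with 1 point per tendon and a line at the group median. Myh7 ranges from 1.10 to 105 within the 7D 0 mg/kg group, and Mybpc1 from 72.1 to 237 in the same group. Mybpc1 is at 366 to 946 in the 7 treated tendons at 7 days.

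The spread between tendons at 21 days was smaller for ratios of members than for their levels, with Myom3 as the exception. Over the 15 tendons the SD of log2 CPM was 2.12 for Acta1 and 1.91 to 2.11 for the fast genes. Taken as a ratio to Acta1 in the same tendon, the SD of the fast genes was 0.252 (Tnnc2) to 0.523 (Mylpf), with a median of 0.334. Over the structural genes it was 0.203 (Ldb3) to 1.37 (Myom3), with a median of 0.584, and over the slow genes 0.424 (Mybpc1) to 1.61 (Myh7), with a median of 0.884. The tendons are not replicates of 1 group here, as they hold 3 doses. Myom3 and Des varied least in level, with an SD of log2 CPM of 0.866 and 1.3. Even in 21D 0 mg/kg replicate 2, where Acta1 was at 102 CPM, Myom3 was at 14.3 and Des at 109 CPM.

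Some structural genes took a larger part relative to Acta1 after repair, as a description without a test. Csrp3 had 6.07, 11.4 and 5.48 counts per 1000 Acta1 counts in control tendons, 30.1, 16.1, 74.6, 12.5 and 44.6 in the 7D 0 mg/kg group and 11.9 to 43.8 in the 21D tendons, and these 20 tendons were all above the 3 controls. In the treated tendons at 7 days it was 45.5, 33.7, 28.6 and 80 with 2 mg/kg and 39.3, 7.58 and 11 with 6 mg/kg in replicates 1, 4 and 5, which had 13, 1 and 2 Csrp3 counts. Replicates 4 and 5 at 6 mg/kg were below the highest control. For Actc1 the ratio was 1.33, 1.84 and 2.34 in control tendons and 18, 11.6, 2.83, 9.92 and 14.9 in the 7D 0 mg/kg group, all above control, while at 21 days it ran from 1.23 to 23.3 and overlapped control. Xirp1 and Nrap overlapped control at 21 days, with 9.53 to 50.2 and 50.6 to 270 counts per 1000 Acta1 counts against 1.98 to 17.1 and 28.6 to 66.6. Control replicate 4 had the lowest ratio for all of Csrp3, Xirp1 and Nrap. That tendon also had lower values for long genes. Neb had 1177, 963 and 190 counts per 1000 Tnnc2 counts in control replicates 2, 3 and 4. Among all genes with at least 50 counts in every control tendon, the median log2 ratio of replicate 4 to the mean of the other control tendons was 0.38 among the 2625 genes with the shortest genomic spans and -0.30 among the 2624 with the longest. Its part in these ratios was not tested.

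Other sarcomere genes were mostly lower than control as well. Of 42 further genes of sarcomeres and their upkeep, 38 were tested. At 7D 0, 2 and 6 mg/kg 36, 37 and 37 of them were lower than control, against 27.6%, 26.5% and 27.4% of all genes. At 21D 0, 2 and 6 mg/kg it was 31, 36 and 30, against 25.2%, 27.3% and 24.6% of all genes. The largest changes at 7D 0 mg/kg were in the small heat shock protein Cryab (-5.82 ± 0.96), the tropomodulin Tmod4 (-5.81 ± 0.93) and Klhl31 (-5.77 ± 1.06), and with 2 mg/kg in the ubiquitin ligase Trim54 (-12.89 ± 1.52), Klhl31 (-11.30 ± 1.52) and the stretch-responsive Ankrd2 (-11.29 ± 1.88). At 6 mg/kg they were in Trim54 (-12.05 ± 1.63), the myosin chaperone Unc45b (-11.44 ± 1.65) and Myoz3 (-11.03 ± 1.84). At 21 days Tmod4 had the largest change at each dose (-3.49 ± 0.85, -4.45 ± 0.88 and -3.24 ± 0.85). Trim63 (-3.32 ± 0.81) and Klhl31 (-3.27 ± 0.97) followed with vehicle, Trim63 (-4.39 ± 0.84) and Capn3 (-4.11 ± 0.82) with 2 mg/kg, and Fhl3 (-3.15 ± 0.42) and Mylk2 (-3.08 ± 0.90) with 6 mg/kg. Tnnt2, the cardiac troponin T, was not called in any of the 6 comparisons, with values from -1.13 to 1.14, and Ankrd1, a stress-responsive ankyrin repeat gene, was not called at 7D 0 mg/kg (-1.63) and had positive values without a call at 21D 0 and 6 mg/kg (0.51 and 1.22). Between doses at 7 days 13 of the 38 were lower with 2 mg/kg and 5 with 6 mg/kg, against 1.32% and 0.39% of all genes. The largest changes among those called were in Trim54 (-7.68 ± 1.39 and -6.83 ± 1.43), Ankrd23 and Unc45b at both doses. From 7 to 21 days 7, 27 and 34 of the 38 were higher at 0, 2 and 6 mg/kg, against 1.86%, 5.07% and 6.72% of all genes. The largest of these changes were in Cryab (3.56 ± 0.84), Hspb7 and Hspb6 with vehicle. At 2 and 6 mg/kg they were in Trim54 (9.09 ± 1.40 and 9.31 ± 1.51), Ankrd23 and Myoz2.

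Muscle genes outside the sarcomere were lower too. Of 17 tested genes of muscle metabolism and excitation, such as Ckm and Mb, all were lower than control in 5 of the 6 comparisons and 16 at 21D 6 mg/kg. Over the 6 comparisons 24.6 to 27.6% of all genes were lower. Between doses at 7 days, 14 of the 17 were lower with 2 mg/kg than with vehicle and 7 with 6 mg/kg. The shares of all genes were 1.32% and 0.39%. Ckm, the muscle creatine kinase, was at 16835 to 33652 CPM in control tendons, 112 to 892 CPM in the 7D 0 mg/kg group, 0.385 to 1.8 CPM with 2 mg/kg and 1.27 to 3.4 CPM with 6 mg/kg. Of 7 tested genes of developing or denervated muscle, 5, 7 and 6 were lower than control at 7 days and 4, 5 and 4 at 21 days. Of all genes 27.6%, 26.5% and 27.4% were lower at 7 days and 25.2%, 27.3% and 24.6% at 21 days. At 7 days, 7 of these 7 genes were lower with 2 mg/kg than with vehicle and 1 with 6 mg/kg, against 1.32% and 0.39% of all genes. Ncam1 and Chrna1 overlapped control at 7D 0 mg/kg. Ncam1 was at 18.2 to 43.7 CPM in control tendons and 26.9 to 53.6 CPM in that group, and Chrna1 at 1.08 to 6.45 and 2.35 to 4.63 CPM. With 2 mg/kg at 7 days they were at 12.3 to 18.3 and 0.221 to 0.71 CPM. Myog, a transcription factor of muscle differentiation, was at 9.53 to 36.9 CPM in control tendons and 0.866 to 4.85 CPM in the 7D 0 mg/kg group, and its median was 0 CPM with 2 mg/kg. Myh3, the embryonic myosin heavy chain, was at 223 to 338 CPM in control tendons and 2.35 to 48.7 CPM in the 7D 0 mg/kg group, and at 21 days it had a median of 97.6, 73 and 160 CPM at 0, 2 and 6 mg/kg.

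Markers of other cells gave the following values in the same tendons. The defining tendon genes Tnmd and Scx were counted in every group, at 147 to 364 and 19 to 37.2 CPM in control tendons and 46.2 to 134 and 21.8 to 91.4 CPM in the 7D 0 mg/kg group. Mkx was called lower at 7D 0 mg/kg (log2 fold change -4.10 ± 0.61), at 2.78 to 9.38 CPM in control tendons and 0.11 to 0.615 CPM in the 7D 0 mg/kg group. The summed level of 10 tenocyte genes was 11290 to 43917 CPM in control tendons, 28779 to 56479, 35916 to 38496 and 38064 to 46007 CPM at 7 days and 25710 to 47195, 25902 to 47096 and 27663 to 42348 CPM at 21 days. Col1a1, a collagen gene that many cell types use, made up most of this sum, at 7355 to 30120 CPM in control tendons and 22740 to 51563 CPM in the 7D 0 mg/kg group (log2 fold change 1.14 ± 0.33). The genes called lower there were Tnmd, Kera, Fmod, Chad and Mkx. Of the 10 genes 5, 5 and 5 were lower and 1, 0 and 1 higher than control at 7 days. Of all genes 27.6%, 26.5% and 27.4% were lower and 29%, 29.1% and 28.3% higher. The median log2 fold change of the 10 genes was -0.13 between 2 and 0 mg/kg and 0.20 between 6 and 0 mg/kg at 7 days. Of 11 macrophage genes 8, 8 and 11 were higher than control at 7 days, against 29%, 29.1% and 28.3% of all genes, with a summed level of 497 to 2157 CPM in control tendons and 2547 to 6000, 3437 to 6335 and 4694 to 5329 CPM at 0, 2 and 6 mg/kg. Of 7 adipocyte genes 5, 7 and 6 were higher than control at 7 days, against the same shares of all genes, with a summed level of 250 to 778 CPM in control tendons and 884 to 1970, 823 to 3912 and 1635 to 3238 CPM. No marker of the tenocyte, macrophage or adipocyte lists had 3 counts or fewer in all tendons of a group. The part of these cells in the levels of the sarcomere genes was not tested.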

How the data were processed

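RNA from 30 plantaris tendons was sequenced as 50-base single-end reads. By the study's methods the authors trimmed adapters and assessed reads with fastp, mapped them to the rat genome rn6 with STAR and counted reads in exons against an Ensembl annotation, and the submitters' processing notes name FastQC, STAR and edgeR without versions. The authors deposited raw counts per gene, with no normalization, and the 30 columns matched the 30 labelled samples. Strand use in counting is not given in the sources used here. Quality removals described in the methods would leave 4 tendons at 7D 6 mg/kg, and the labels give 3. A second deposited file holds the authors' log2 fold changes, average log2 CPM, p-values and FDR values, which were not used. Only gene identifiers, chromosomes and the genomic span of genes were read from it.

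The compound was gavaged 2 times daily. Groups were taken from the repair time and dose in the labels. The 12558 genes whose group mean reached 3 CPM in 1 or more groups were kept, and edgeR 4.0.16 in R 4.3.3 was fitted to the counts of all 30 tendons (TMM, quasi-likelihood test, Benjamini-Hochberg adjustment over all genes kept), with a call at an adjusted p under 0.05 and at least 1.5-fold (for tests over several doses, the adjusted p alone). TMM factors were 0.599 to 0.788 in control and 0.95 to 1.09 in repaired tendons. Printed CPM values use TMM-scaled library sizes. Standard errors came from the same fit, and intervals of count ratios were exact at 95% and cover counting error only. DESeq2 1.42.0 (default dispersion setting), another or no scaling factor, no expression filter, fits of the compared groups alone, a replicate block and leaving out each tendon were the alternatives. The procedure was tested on simulated data. Of 52 pairs of tendons within groups none looked like a duplicated library. Figures were drawn with matplotlib 3.10.9.

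The members and all gene lists were chosen with earlier results of these data known. The genes named were every member with its call, with values for a fixed selection of fast, slow and structural genes, the 3 further sarcomere genes with the largest called change in each comparison and direction, those against the direction of most of their list, and defining markers. Other genes given are members near 3 counts or with a pattern unlike their class. Promoter letters came from RefSeq (GRCr8), a build other than that of the counts, and were matched by gene symbol.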

Additional observations from a re-analysis of the deposited data

Results flagged for a closer look

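In 21D 0 mg/kg replicate 2 the summed level of the 34 sarcomere genes was 789 CPM, and the other 4 tendons of its group were at 20603 to 71464 CPM. On the log2 scale the gap to the nearest tendon was 0.724 of the group's range, past the limit of 0.71 in Dixon's test for 5 samples, but on the linear CPM scale it was 0.28, below that limit. The same tendon stood apart in each class on the log2 scale (0.725 to 0.739) and not on the linear scale (0.221 to 0.313), at 337 CPM for the fast genes (others 11221 to 41324), 13.2 CPM for the slow genes (others 909 to 4061) and 439 CPM for the structural genes (others 8474 to 26078). In all 25 sets of a group and a measure were tested, and chance alone sets about 1 in 20 sets apart. Among single members, also on the log2 scale, 27 of 168 sets (16.1%) had a tendon apart, and 23 of these were in 21D 0 mg/kg replicate 2. The members share that library.

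For 14 members the difference between doses changed from 7 to 21 days by the interaction term of edgeR's quasi-likelihood test. Acta1 had a log2 fold change of -8.35 ± 1.32 (SE) between 2 and 0 mg/kg at 7 days, and the adjusted p of its interaction was 0.0104.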

How the results depend on the processing

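Over 408 fold changes and 5712 alternative values, 222 lost a call and 113 gained one. The other sign was seen in 38 values of 17 fold changes, of which 0 were called in either fit. Of the 17, 16 were between 6 and 2 mg/kg at 7 days. With the replicate block this log2 difference was -0.42 for Actn3, -0.15 for Cmya5, -0.0015 for Csrp3, -0.27 for Mybpc2, -0.08 for Myom1, -0.12 for Myom2 and -0.18 for Tnnt1. For Myh7 it was 0.09 by DESeq2 and 0.02 with only the compared groups, and for Tnnc1 0.02, 0.02 and, by library size only, 0.01. Without 1 tendon it ran from -1.55 to 3.12 for Actc1, -0.24 to 0.29 for Actn3, -0.78 to 0.78 for Csrp3, -0.23 to 0.04 for Ldb3, -0.13 to 0.53 for Mybpc2, -0.28 to 0.26 for Myh7, -0.05 to 1.14 for Myl2, -0.69 to 0.43 for Myl3, -0.16 to 0.52 for Myom2, -0.47 to 0.56 for Myoz1, -1.10 to 0.87 for Smyd1, -0.11 to 0.12 for Tnnc1 and -0.69 to 0.19 for Xirp1. The remaining fold change was Myom3 between 2 and 0 mg/kg at 7 days, at 0.07 with the replicate block and -0.19 to 0.04 without 1 tendon. Without a scaling factor the median of all genes moved by 0.508 to 0.641 log2 against control, and the TMM values above lie within 0.055 of 0. At 21D 6 mg/kg the count of members lower than control was 22, and 11 when only the compared groups were fitted, and leaving out 1 tendon gave 14 (without control replicate 4) to 28. The count lower at 7D 6 mg/kg than at 0 mg/kg was 16, with 28 by DESeq2 and 0 to 19 without 1 tendon. For 21D against 7D at 0 mg/kg it was 6, with 27 by DESeq2, 0 with only the compared groups (30 members at an unadjusted p under 0.05) and 0 to 30 without 1 tendon. For the interaction it was 14, with 23 by DESeq2 and 8 to 19 without 1 tendon. The causes were not tested.

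With the replicate number as a block, 9 members passed the interaction test, and the counts of the other comparisons stayed within 1.5 times. Tendons with the same number in different groups had no common deviation by the median (76 pairs, r from -0.701 to 0.681, median 0.00685, 29 over 0.1). Pairs with different numbers had a median r of 0.00878. The tendons were thus not treated as paired, but a median cannot exclude a link between some of them.

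With 3 control tendons, of which replicate 4 differed in slow and in long genes, the comparisons of slow genes with control were imprecise. That tendon also differed in several fast genes, with Mylpf at 42998 CPM where replicates 2 and 3 were at 16065 and 14913. Myh4 hardly differed there, at 50333 CPM against 54429 and 49868. At 7D 2 and 6 mg/kg several members had a few counts per tendon, and the errors of the differences between these doses were large. What set them was not tested.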
